A study of Homo sapiens with 51 samples.

Results

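GSC, LHX1, OTX2 and HESX1 are 4 homeobox genes that mark the anterior end of the primitive streak, the organizer and the tissues it patterns in vertebrate embryos. They were taken by name as 4 of the 58051 gene rows of a bulk RNA-seq count table, and all 4 were among the 19603 genes with enough counts to be tested. H1 human embryonic stem cells, an established line, were grown untreated on Matrigel in mTeSR1 or moved for 1, 6, 12, 24, 36, 48, 72 or 96 h to TeSR E5 medium containing 3.2 µM insulin, 20 ng/mL FGF2 and a compound spelled LY29004 in the labels at 1 µM. One differentiation condition added Activin A at 100 ng/mL with BMP4 at 10 ng/mL (called Activin+BMP4 here), and the other added BMP4 alone at 50 ng/mL (called BMP4 here). With the untreated cells this gives 17 groups of 3 libraries, 51 in all, from 1 cell line. Both conditions shared the medium and its additives and differed in Activin and in the BMP4 dose, which cannot be told apart between them. Against untreated cells the medium changed together with the growth factors, and these cannot be told apart either. The labels do not name separate cultures behind the 3 libraries of a group, and p-values here reflect library-to-library spread, which may be technical.

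In the gastrula, high NODAL or Activin signalling, passed on by SMAD2, SMAD3 and FOXH1, sets the anterior streak, while BMP and WNT signals favour posterior fates. GSC encodes a paired-type homeodomain repressor of the organizer, LHX1 (LIM1) a LIM-homeodomain factor of the streak, node and head organizer, and OTX2 a bicoid-class factor of the epiblast, anterior endoderm, forebrain and midbrain. HESX1 encodes a paired-like repressor with an eh1 motif that recruits Groucho/TLE corepressors, is known from naive and early epiblast, anterior endoderm and the rostral neural plate, and is needed for the forebrain and pituitary.

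The promoter windows of the members differ in base composition and in homeodomain letters, and are shown because homeodomain proteins such as these 4 bind sites built on a TAAT core. The RefSeq promoter table on GRCh38.p14, which spans 250 bases before to 50 after a start site, held 5 windows for 3 of the members. The GSC window lies at chr14:94770064-94770363, the OTX2 windows at chr14:56810430-56810729 and chr14:56805618-56805917, and the HESX1 windows at chr3:57227566-57227865 and chr3:57199929-57200228, all on the minus strand. Each is printed 5′ to 3′ on the gene's strand, with capitals marking matches on either strand to the homeodomain core TAAT, its longer forms TAATCC and TAATTA, or the FOXH1-type AATNCACA.
GSC: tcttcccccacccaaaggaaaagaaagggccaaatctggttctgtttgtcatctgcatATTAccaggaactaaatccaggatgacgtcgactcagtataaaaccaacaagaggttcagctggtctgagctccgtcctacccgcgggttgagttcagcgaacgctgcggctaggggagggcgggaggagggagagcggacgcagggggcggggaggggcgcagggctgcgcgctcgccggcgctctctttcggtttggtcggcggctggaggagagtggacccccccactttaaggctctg
OTX2, upstream start: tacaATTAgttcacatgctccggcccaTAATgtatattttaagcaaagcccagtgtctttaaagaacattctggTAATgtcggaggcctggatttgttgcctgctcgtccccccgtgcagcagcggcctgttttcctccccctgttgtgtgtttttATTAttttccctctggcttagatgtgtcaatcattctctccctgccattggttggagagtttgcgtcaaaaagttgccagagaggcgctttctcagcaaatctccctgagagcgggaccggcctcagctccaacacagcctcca
OTX2, downstream start: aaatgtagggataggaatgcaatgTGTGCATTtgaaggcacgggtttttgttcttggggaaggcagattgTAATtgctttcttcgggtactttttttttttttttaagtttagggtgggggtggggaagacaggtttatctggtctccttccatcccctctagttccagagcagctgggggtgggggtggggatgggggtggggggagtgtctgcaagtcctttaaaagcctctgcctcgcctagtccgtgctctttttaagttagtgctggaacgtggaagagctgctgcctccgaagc
HESX1, upstream start: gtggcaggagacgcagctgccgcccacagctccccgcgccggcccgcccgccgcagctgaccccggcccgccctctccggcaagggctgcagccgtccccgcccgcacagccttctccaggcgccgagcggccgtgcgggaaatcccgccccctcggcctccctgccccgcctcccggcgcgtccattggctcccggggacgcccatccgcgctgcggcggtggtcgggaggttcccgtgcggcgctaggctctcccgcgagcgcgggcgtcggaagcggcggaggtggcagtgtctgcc
HESX1, downstream start: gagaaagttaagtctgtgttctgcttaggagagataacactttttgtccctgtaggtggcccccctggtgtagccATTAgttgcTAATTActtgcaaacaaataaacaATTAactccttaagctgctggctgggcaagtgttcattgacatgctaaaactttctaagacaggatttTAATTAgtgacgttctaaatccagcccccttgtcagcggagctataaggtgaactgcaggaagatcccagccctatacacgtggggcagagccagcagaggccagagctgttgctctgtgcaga

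TAAT occurred 6 times in the downstream HESX1 window, 4 times in the upstream OTX2 window, and 1 time each in the GSC window and the downstream OTX2 window. No TAAT was found in the upstream HESX1 window, which had a GC content of 78.7% against 46.3% in the downstream one. TAATTA, whose letters contain TAAT on both strands, occurred 2 times, both in the downstream HESX1 window, and TAATCC in none of the 5. AATNCACA was matched 1 time, in the downstream OTX2 window. The SMAD box letters CAGAC, not capitalised, occurred 1 time in each window except the upstream OTX2 one. Among 35116 promoters of the same length, 50.2% held TAAT, 6.36% TAATCC, 4.84% TAATTA, 3.31% AATNCACA and 45.3% CAGAC. These are letter matches, and the gene-level counts do not show which start was used.

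Total counts per library ranged from 22788905 to 30354633 with a median of 24944617, and the lowest correlation of log2 CPM (counts per 1000000 counts of a library) between libraries of a group was 0.9916. In each of 3 groups 1 library differed from the other 2 by at least 3 times the chi-square per gene between those 2: replicate 2 of Activin+BMP4 at 48 h, replicate 3 of Activin+BMP4 at 96 h and replicate 1 of BMP4 at 12 h. Leaving these out, 1 at a time, ended no call of a member. The pluripotency list summed to 9081 to 9316 CPM over its 10 genes in untreated cells, and to between 3747 and 5014 CPM at 96 h over both conditions.

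The members took 3 different courses. GSC and LHX1 were low in untreated cells. With Activin+BMP4 GSC rose from 24 h and LHX1 from 36 h on, and with BMP4 both rose later and to a lower peak. OTX2 was already high and dipped in both conditions, and with Activin+BMP4 it then climbed more than 2-fold above its starting level. With BMP4 it passed that level by less than 2-fold, at a log2 change of 0.686 at 72 h. By 96 h of BMP4 the OTX2 change from untreated cells was -0.172 and not called, and OTX2 was 4.13-fold lower than with Activin+BMP4. HESX1, also present at the start, fell in both conditions and rose again with BMP4; at 96 h it was 5.96-fold higher with BMP4, the opposite direction to the other 3 genes. Levels are CPM scaled by TMM factors, given as mean ± SD over n = 3 libraries, and a gene is called changed where its p from edgeR's quasi-likelihood test, adjusted by Benjamini-Hochberg, was under 0.05 and the change at least 2-fold.

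**Figure D1:**
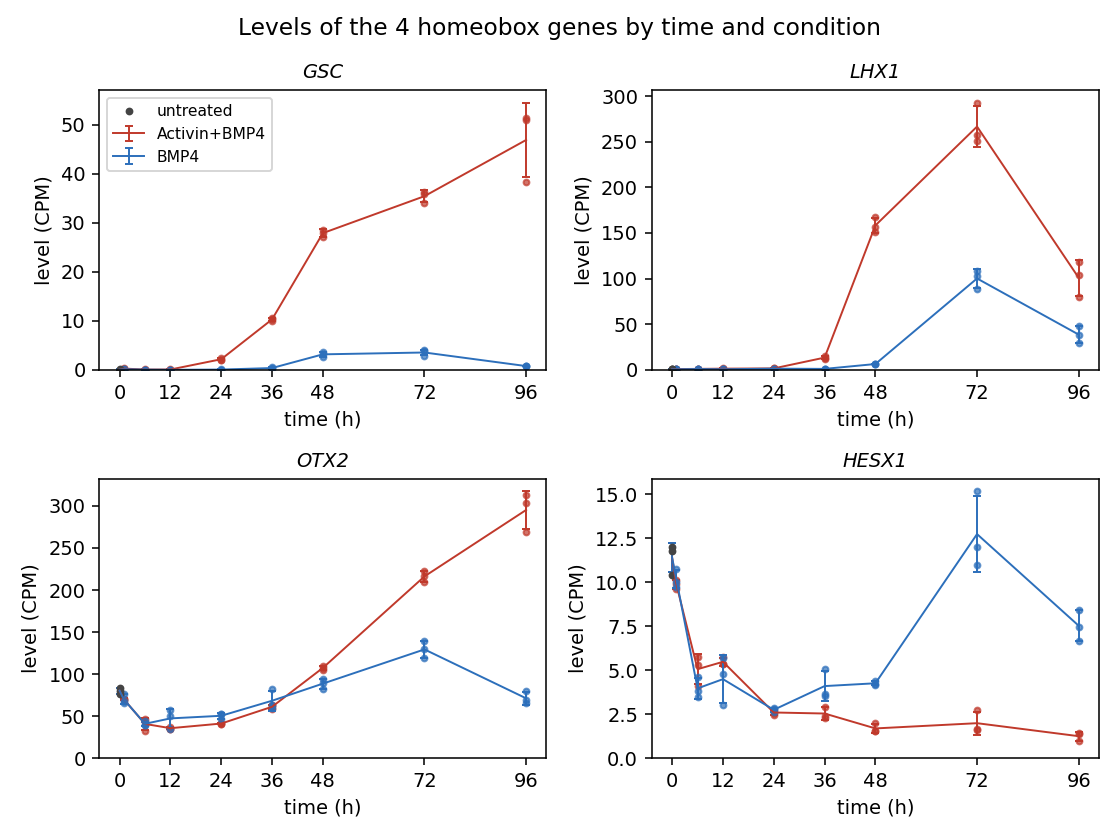
CPM against time in hours for GSC, LHX1, OTX2 and HESX1, with each library as a point, lines through the group means and bars of 1 SD over 3 libraries; untreated cells stand at 0 h and both lines start there. The Activin+BMP4 lines of GSC and OTX2 end at 46.9 and 295 CPM against 0.782 and 71.4 CPM with BMP4, and that of HESX1 ends at 1.26 against 7.53 CPM.

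GSC, at chr14:94768216-94770230 on GRCh38 in the GENCODE 29 annotation (minus strand, 1264 exonic bases, Ensembl ENSG00000133937), had 3 counts in the untreated libraries together, all in replicate 2. With Activin+BMP4 its levels in replicates 1, 2 and 3 were 2.47, 2.00 and 2.07 CPM at 24 h. At 36 h they were 10.3, 9.93 and 10.7 CPM, and at 48 h 28.0, 27.1 and 28.6 CPM. The 3 times did not overlap, and each library was above every library of the time before. The 72 h libraries had 34.1, 35.9 and 36.3 CPM, and those of 96 h had 51.03, 51.4 and 38.3 CPM. Replicate 3 at 96 h was the low one, yet still above the 72 h libraries.

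With BMP4, GSC appeared later and stayed low. Its levels were 0.129, 0.0424 and 0.0391 CPM at 24 h, on 5 counts in all, and 0.527, 0.256 and 0.363 CPM at 36 h. At 48 h they reached 2.71, 3.18 and 3.64 CPM, at 72 h 3.84, 3.96 and 2.86 CPM, and at 96 h they were back at 0.730, 0.829 and 0.786 CPM. The highest BMP4 level, 3.55 ± 0.605 CPM at 72 h, was 7.58% of the highest Activin+BMP4 level, and lay between the Activin+BMP4 levels of 24 h and 36 h. The 48 h and 72 h libraries with BMP4 overlapped.

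Against the 3 untreated counts, the ratio of GSC counts per total with Activin+BMP4 was 53.5 at 24 h (95% exact interval 18 to 262), 253 at 36 h (86.2 to 1230) and 1150 at 96 h (393 to 5580). With BMP4 the ratio was 9.33 at 36 h (2.87 to 48.1), 87.7 at 72 h (29.7 to 428) and 19.2 at 96 h (6.29 to 95.5). These intervals cover counting error only. GSC also passed the test at 1 h of Activin+BMP4 (edgeR adjusted p = 0.0215), on 20 counts against 3, a ratio of 6.63 (1.97 to 34.9). That call was lost without untreated replicate 1 (adjusted p = 0.118), untreated replicate 3 (0.117) or Activin+BMP4 replicate 2 (0.113), and at 6 h only 6 counts were left in 3 libraries.

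Step by step, GSC rose with Activin+BMP4 by 4.69 ± 0.40 (log2 ± SE) from 12 to 24 h, 2.24 ± 0.17 from 24 to 36 h and 1.44 ± 0.14 from 36 to 48 h, with edgeR adjusted p of 3.08e-12, 1.14e-13 and 3.04e-11. The later steps of 0.34 ± 0.13 and 0.40 ± 0.12 stayed under 2-fold. With BMP4 it rose by 3.04 ± 0.28 from 36 to 48 h (edgeR adjusted p = 1.35e-11), changed by 0.17 ± 0.18 from 48 to 72 h, and fell by 2.18 ± 0.22 from 72 to 96 h (edgeR adjusted p = 9.92e-11). GSC declined on the last day in one condition while its mean in the other was the highest of all 17 groups. The step from 24 to 36 h with BMP4, 2.38 ± 0.62 (edgeR adjusted p = 0.00901), was lost without BMP4 24 h replicate 2 or 3 or 36 h replicate 1, with adjusted p of 0.0556, 0.0606 and 0.073.

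LHX1 lies at chr17:36936785-36944612 on the plus strand (GRCh38, GENCODE 29, 4882 exonic bases, ENSG00000273706). An antisense transcript, AC243773.1, overlaps it, and without a stated strand setting their reads cannot be told apart; AC243773.1 had 302 counts over all libraries and at most 1.58 CPM in a group mean. In untreated cells LHX1 was at 0.603, 0.684 and 0.755 CPM. With Activin+BMP4 it stood at 1.52, 1.75 and 1.67 CPM at 24 h, 12.3, 13.0 and 15.1 CPM at 36 h and 156, 151 and 168 CPM at 48 h. Each 36 h and 48 h library was above all earlier ones. It then peaked at 292, 257 and 251 CPM at 72 h and had dropped to 118, 104 and 80.1 CPM at 96 h.

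The same rise came later and smaller with BMP4. LHX1 was at 0.923, 1.28 and 1.17 CPM at 36 h, and at 6.78, 6.11 and 6.49 CPM at 48 h. At 72 h it reached 88.9, 103 and 109 CPM, and at 96 h it had fallen to 48.3, 37.9 and 29.9 CPM. The 72 h level with BMP4, 100.2 ± 10.2 CPM, overlapped the 96 h level with Activin+BMP4, 101 ± 19.4 CPM, and neither reached the 48 h level with Activin+BMP4. Both conditions had their highest LHX1 mean at 72 h.

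LHX1 rose with Activin+BMP4 by 3.03 ± 0.20 (log2) from 24 to 36 h and 3.55 ± 0.12 from 36 to 48 h, with edgeR adjusted p of 1.87e-15 and 5.81e-26, and then by 0.75 ± 0.094 to 72 h. In BMP4 the step from 24 to 36 h was -0.29 ± 0.35 (edgeR adjusted p = 0.714), followed by rises of 2.51 ± 0.25 and 3.95 ± 0.13 over the next intervals (2.11e-10 and 2e-26). On the last step LHX1 fell by 1.40 ± 0.096 with Activin+BMP4 and by 1.38 ± 0.10 with BMP4, at edgeR adjusted p of 2.79e-15 and 1.38e-14, and the difference between these falls was not tested. Smaller shifts from untreated cells were close to the threshold. They were 1.01 ± 0.39 at 12 h of Activin+BMP4 (edgeR adjusted p = 0.0391; lost without either of Activin+BMP4 12 h replicates 2 and 3 or any untreated library, 0.0571 to 0.168) and 1.02 ± 0.40 at 24 h of BMP4 (0.0376; lost without any 1 of the 6 libraries compared, 0.0558 to 0.101).

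The divergent transcript LHX1-DT, which starts next to LHX1, had 0.815 ± 0.154 CPM with BMP4 against 8.45 ± 1.09 CPM with Activin+BMP4 at 48 h, a log2 difference of -3.36 ± 0.21 (edgeR adjusted p = 2.58e-17). Its highest group mean, 14.0 ± 1.32 CPM, was at 72 h of Activin+BMP4, the same group as for LHX1.

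OTX2 (chr14:56799905-56810479, minus strand, 3272 exonic bases, ENSG00000165588) was at 80.5, 84.0 and 77.0 CPM in untreated cells. After 6 h it was at 32.6, 43.4 and 46.9 CPM with Activin+BMP4 and at 39.5, 39.6 and 44.3 CPM with BMP4. All 6 of these libraries lay below the untreated ones, and the conditions overlapped. The log2 change at 6 h was -0.97 ± 0.11 in each condition, at edgeR adjusted p of 2.83e-09 and 3.31e-09, just under a 2-fold change. Without Activin+BMP4 6 h replicate 2 or 3, BMP4 6 h replicate 3 or untreated replicate 3 the value passed 2-fold, between -1.08 and -1.001. The lowest OTX2 mean of the 17 groups, 35.9 ± 1.34 CPM, was at 12 h of Activin+BMP4. Its log2 change from untreated cells was then -1.165, past 2-fold and called, and -1.204 to -1.134 with 1 library left out. With BMP4 the change at 12 h was -0.757.

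From 24 h OTX2 climbed with Activin+BMP4, from 41.4 ± 0.926 CPM to 61.3 ± 2.56 CPM at 36 h and 107 ± 2.18 CPM at 48 h. At 72 h its levels were 222, 209 and 217 CPM, and at 96 h 303, 313 and 269 CPM. No library of one time overlapped with the next from 24 h on. With BMP4 it was at 57.2, 50.7 and 34.7 CPM at 12 h and 82.3, 62.9 and 60.2 CPM at 36 h, 2 groups with a wide spread. It reached 139, 119 and 130.1 CPM at 72 h and returned to 69.0, 65.3 and 79.8 CPM at 96 h, which overlapped the untreated libraries.

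Compared with untreated cells, OTX2 at 96 h was higher by 1.87 ± 0.11 (log2) with Activin+BMP4 (edgeR adjusted p = 1.55e-19) and differed by -0.17 ± 0.11 with BMP4 (0.162). Its step from 72 to 96 h was 0.45 ± 0.10 with Activin+BMP4 and -0.86 ± 0.11 with BMP4, both with edgeR adjusted p under 0.05 (0.000415 and 1.19e-08) and both under 2-fold. The step from 48 to 72 h with Activin+BMP4, 1.01 ± 0.10 (edgeR adjusted p = 9.21e-11), was the one OTX2 step between neighbouring times that passed 2-fold; without Activin+BMP4 48 h replicate 1 or 72 h replicate 1 or 3 it was 0.98 to 0.999.

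HESX1 (chr3:57197838-57227606, minus strand, 1493 exonic bases, ENSG00000163666) was at 12.0, 11.7 and 10.4 CPM in untreated cells. At 24 h it was at 2.59, 2.46 and 2.77 CPM with Activin+BMP4 and at 2.63, 2.80 and 2.85 CPM with BMP4, so the conditions overlapped; this was the lowest mean of the BMP4 course. Activin+BMP4 kept it low, at 1.57, 2.00 and 1.54 CPM at 48 h, 2.74, 1.61 and 1.65 CPM at 72 h and 1.37, 1.44 and 0.975 CPM at 96 h. In BMP4 it recovered, to 4.23, 4.40 and 4.17 CPM at 48 h and 15.2, 11.0 and 12.0 CPM at 72 h, before 6.69, 7.46 and 8.45 CPM at 96 h. From 36 h on no BMP4 library overlapped an Activin+BMP4 library. Its level at 72 h of BMP4, 12.7 ± 2.18 CPM, was the highest mean of the 17 groups and overlapped the untreated libraries.

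Relative to untreated cells, HESX1 fell by 1.17 ± 0.16 (log2) at 6 h of Activin+BMP4 and by 1.51 ± 0.16 at 6 h of BMP4, with edgeR adjusted p of 7.14e-08 and 2.93e-10. At 24 h the falls were 2.13 ± 0.17 and 2.04 ± 0.17. By 96 h the Activin+BMP4 value had dropped by 3.17 ± 0.19 (edgeR adjusted p = 5.16e-19). At 72 h of BMP4 the difference from untreated was 0.16 ± 0.15 (edgeR adjusted p = 0.354), after a rise of 1.58 ± 0.16 from 48 to 72 h (8.58e-11). Per length, HESX1 had the lowest level of the 4 at 96 h of Activin+BMP4, at 0.845 CPM per kb of exon against 90.2 for OTX2, 37.1 for GSC and 20.7 for LHX1. In untreated cells the order was OTX2 24.6, HESX1 7.63, LHX1 0.139 and GSC 0.0318 CPM per kb.

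**Figure D2:**
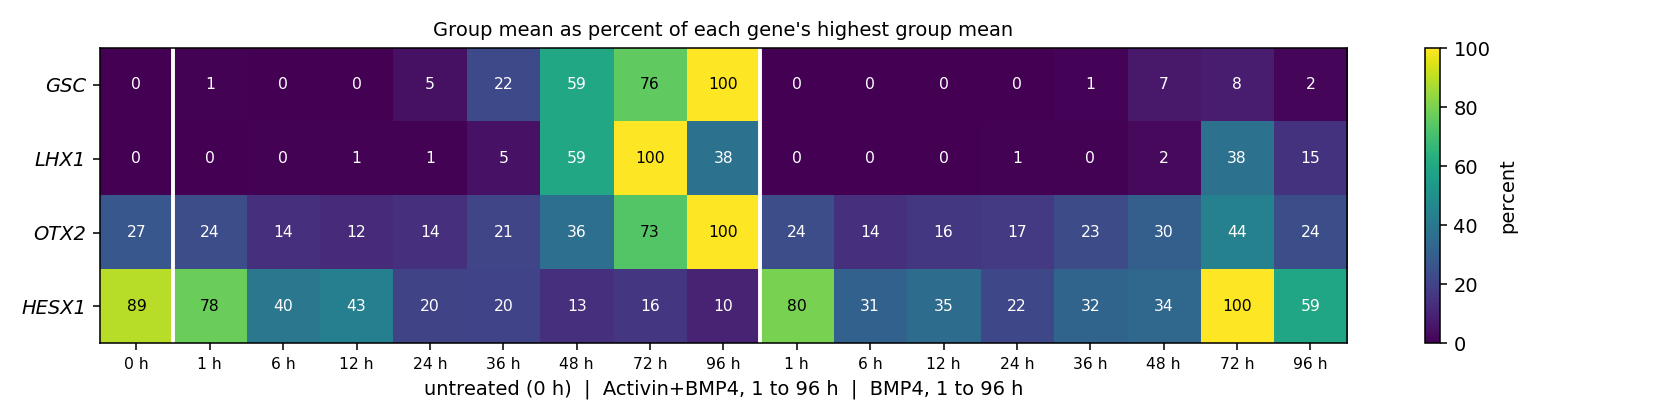
Group means of the 4 genes in 17 groups, as a percent of each gene's highest group mean, with untreated cells first and the times of each condition in order. The brightest cell is at 96 h of Activin+BMP4 for GSC and OTX2, at 72 h of Activin+BMP4 for LHX1 and at 72 h of BMP4 for HESX1, where untreated cells stand at 89.4 percent.

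Counted over the members, Activin+BMP4 differed from untreated cells in 1 of 4 genes at 1 h and 6 h, 3 of 4 at 12, 24, 36 and 48 h and 4 of 4 at 72 and 96 h. Over all genes tested the called shares at these times were 0.867%, 5.69%, 6.82%, 8.08%, 10.5%, 15.8%, 21% and 26.5%. BMP4 differed from untreated cells in 0 of 4 at 1 h, 1 of 4 at 6 and 12 h, 2 of 4 at 24 and 36 h, 3 of 4 at 48 h and 2 of 4 at 72 and 96 h, beside 1.21%, 4.99%, 5.62%, 7.21%, 8.41%, 12.2%, 16.9% and 23.2% of all genes. At 96 h of BMP4 the called members were GSC and LHX1, both higher. Both sets of comparisons use the same untreated libraries.

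From 1 to 6 h, 1 of 4 members was called in each condition, and both fell. They were GSC with Activin+BMP4 (log2 -1.85, from 20 counts to 6) and HESX1 with BMP4 (-1.35). In either condition 0 of 4 were called from 6 to 12 h, and in BMP4 0 of 4 from 12 to 24 h. The shares of all genes are not given for these steps. Between later neighbouring times of Activin+BMP4, 2 of 4 members were called from 12 to 24 h (GSC up, HESX1 down), beside 2.22% of all genes. GSC and LHX1 were the 2 called from 24 to 36 h and again from 36 to 48 h, where 2.65% and 3.4% of all genes were. From 48 to 72 h OTX2 alone was called (7.69% of all genes), and from 72 to 96 h LHX1 alone (3.76%). In BMP4, GSC was the 1 member called from 24 to 36 h (1.16%), GSC and LHX1 from 36 to 48 h (2.35%), LHX1 and HESX1 from 48 to 72 h (5.43%), and GSC and LHX1, now falling, from 72 to 96 h (5.5%).

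Set against each other at the same time, the conditions did not differ in any member by the call rule at 1, 6 or 12 h, when 0.0051%, 0.505% and 1.42% of all genes were called. At 12 h OTX2 was higher with BMP4 by 0.41 ± 0.12 (log2; edgeR adjusted p = 0.0186), under 2-fold, and LHX1 differed by -0.97 ± 0.38 (0.116). At an adjusted p under 0.05 alone, none passed at 1 or 6 h. GSC was the 1 member called at 24 h (4.01% of all genes), at a log2 difference of -4.89 ± 0.42, edgeR adjusted p = 1.62e-12. At 36 h GSC and LHX1 were called (5.58%), at -4.74 ± 0.24 and -3.58 ± 0.22, with edgeR adjusted p of 2.77e-20 and 4.05e-17.

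At 48 h, 3 of 4 members were called (9.25% of all genes). The LHX1 difference was then the widest of its course, -4.61 ± 0.13 (edgeR adjusted p = 2.56e-29), GSC differed by -3.14 ± 0.16 (1.06e-20), and HESX1 was higher with BMP4 by 1.33 ± 0.19 (3e-07). The same 3 were called at 72 h (9.63%), with LHX1 at -1.41 ± 0.096, GSC at -3.31 ± 0.15 and HESX1 at 2.68 ± 0.18, and OTX2 at -0.74 ± 0.10 passed on p alone (edgeR adjusted p = 9.23e-08). All 4 were called at 96 h (15.6%): GSC at -5.90 ± 0.19, LHX1 at -1.39 ± 0.10, OTX2 at -2.05 ± 0.11 and HESX1 at 2.58 ± 0.19, with edgeR adjusted p of 4.49e-28, 2.09e-15, 1.94e-20 and 1.62e-15. In each, 3 of 3 libraries lay on one side of all 3 of the other condition. The share of all genes that separate in this way was not counted.

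**Figure D3:**
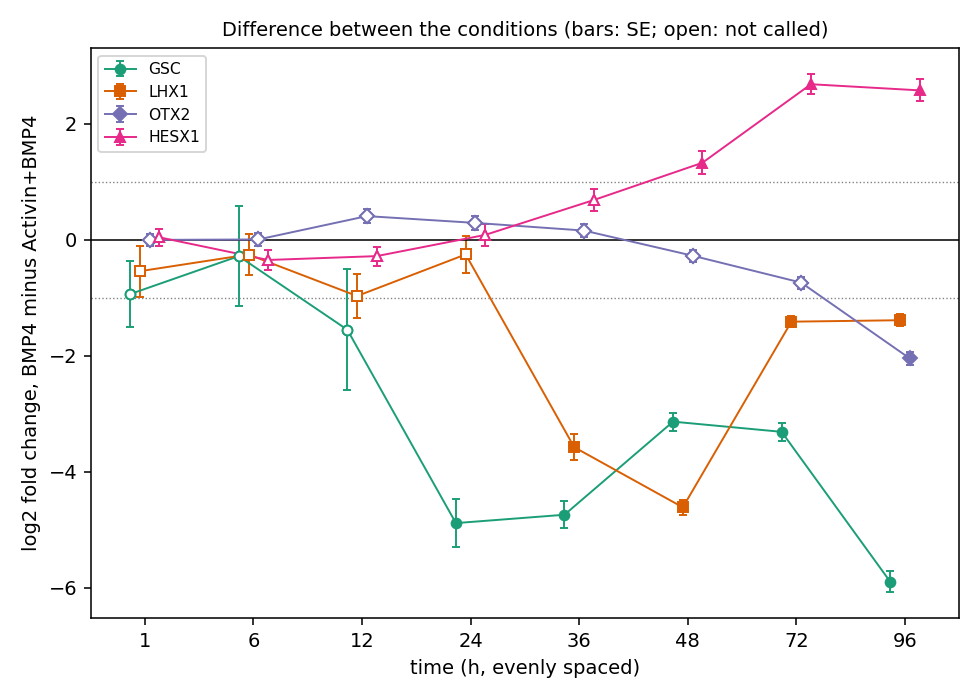
Log2 fold change of BMP4 minus Activin+BMP4 at each of 8 times for the 4 genes, with bars of 1 SE; filled points were called, open points were not, and dotted lines mark 2-fold. GSC is filled from 24 h, LHX1 from 36 h, HESX1 from 48 h on the positive side and OTX2 at 96 h.

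The condition difference was also compared between 24 and 96 h. It changed by -2.34 ± 0.16 for OTX2, by 2.49 ± 0.28 for HESX1 and by -1.13 ± 0.35 for LHX1 on the log2 scale, with edgeR adjusted p of 3.1e-16, 4.31e-10 and 0.0065, so 3 of 4 members were called where 13.6% of all genes were. GSC, already lower with BMP4 at 24 h, had a change of -1.01 ± 0.87 (edgeR adjusted p = 0.372). Without BMP4 96 h replicate 3 the LHX1 value was -0.987 (edgeR adjusted p = 0.00756), just under 2-fold.

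Of the list of organizer and anterior endoderm genes, 20 of 21 could be tested. At 24 h 12 of the 20 were lower with BMP4 and 2, CHRD and NOG, higher, with a median log2 difference of -1.43 against 0.0117 over all genes, of which 1.6% were lower and 2.41% higher. At 96 h 14 were lower and 2 higher (median -2.54 against 0.00488; 7.95% and 7.62% of all genes). LEFTY1 and LEFTY2, secreted NODAL inhibitors of similar sequence between which reads may be split, had 0.564 ± 0.349 and 3.13 ± 0.860 CPM with BMP4 against 551 ± 52.7 and 700 ± 196 CPM with Activin+BMP4. CER1, a secreted inhibitor of NODAL, BMP and WNT, had 49.4 ± 5.26 against 2917 ± 438 CPM, and FOXA2, a forkhead factor of endoderm and node, 2.64 ± 0.176 against 59.8 ± 4.45 CPM. The 2 genes higher with BMP4 were both BMP antagonists of the organizer: NOG at 38.7 ± 5.22 against 3.81 ± 2.11 CPM, and CHRD at 5.21 ± 0.457 against 0.948 ± 0.0689 CPM.

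The posterior streak list changed sides over time. At 24 h 7 of its 16 genes were lower with BMP4 and 1, MSX1, higher (median -1.23), at 48 h 6 were lower and CDX2, HOXB1, MSX1 and MSX2 higher (median -0.324; 4.39% of all genes lower, 4.86% higher), and at 96 h 15 were higher and 1 lower (median 3.65). The shares of all genes lower and higher were 1.6% and 2.41% at 24 h and 7.95% and 7.62% at 96 h. At 96 h CDX2, a caudal homeobox factor, had 31.9 ± 4.11 CPM with BMP4 against 0.0116 ± 0.0201 CPM, MSX1 had 104 ± 8.08 against 0.361 ± 0.0359 CPM, and HOXB1 had 3.62 ± 0.671 against 0.0240 ± 0.0208 CPM. The 1 lower gene was FGF8, at 1.33 ± 0.129 against 15.6 ± 3.14 CPM. TBXT (brachyury), the pan-streak T-box factor, went from 1.35 ± 0.471 with BMP4 against 43.0 ± 1.73 CPM at 24 h to 45.6 ± 3.10 against 10.4 ± 2.89 CPM at 96 h.

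**Figure D4:**
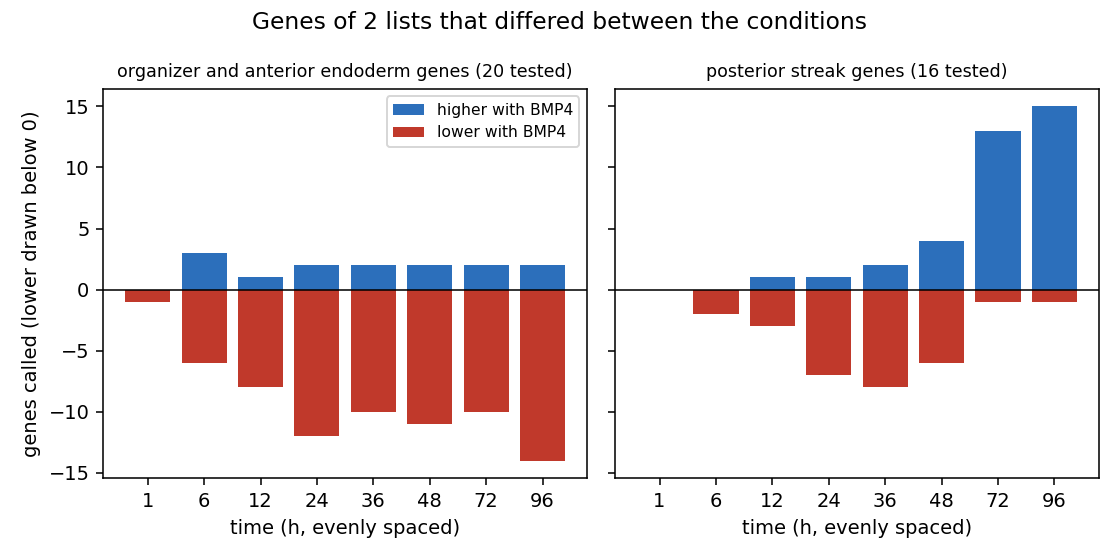
Numbers of called genes in the organizer and anterior endoderm list (20 tested) and the posterior streak list (16 tested) at each time, with genes higher with BMP4 drawn upward and genes lower drawn downward. The organizer bars reach 14 lower genes at 96 h, and the posterior bars go from 7 lower genes at 24 h to 15 higher genes at 96 h.

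In the NODAL and Activin signal chain, 5 of 19 genes were lower with BMP4 (NODAL, GDF3, TDGF1, LEFTY1 and LEFTY2) and 3 higher (INHBA, INHBB and CFC1) at 96 h (median -0.374 against 0.00488 over all genes, of which 7.95% were lower and 7.62% higher). NODAL, GDF3, LEFTY1 and LEFTY2 are also counted in the organizer list and TDGF1 in the pluripotency list, so these counts are not separate. NODAL itself, the ligand, was already called at 6 h, with 2.49 ± 0.116 CPM in BMP4 against 34.0 ± 2.13 CPM in Activin+BMP4. None of the 4 members was called between the conditions at that time. NODAL had 14.4 ± 1.86 CPM with BMP4 against 148 ± 4.09 CPM at 24 h, when GSC was first called. It had 66.0 ± 2.40 against 156 ± 8.998 CPM at 48 h and 7.76 ± 1.304 against 89.8 ± 13.8 CPM at 96 h. INHBA, whose product forms Activin A, reached 18.1 ± 3.94 CPM in BMP4 but 0.0371 ± 0.0642 CPM in Activin+BMP4 at 96 h, and CFC1, a NODAL co-receptor, 44.3 ± 4.21 against 0.909 ± 0.0972 CPM, a value that is uncertain because CFC1 has a near-identical copy.

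The list of partner proteins holds the cofactors that LIM-homeodomain and eh1-bearing factors bind. At 96 h 4 of 16 were higher with BMP4 (LMO1, LMO2, LMO3 and TLE4) and 2 lower, TLE2 and TLE5. The median was 0.275 against 0.00488 over all genes, of which 7.62% were higher and 7.95% lower. LDB1, which bridges LIM-homeodomain proteins such as LHX1, had 85.0 ± 2.42 CPM in the BMP4 libraries, 70.2 ± 3.85 CPM in those of Activin+BMP4 and 85.4 ± 1.31 CPM in untreated cells, and was not called. LMO1, LMO2 and LMO3, LIM-only proteins that also bind LDB1, had 5.09 ± 1.12, 3.10 ± 0.394 and 1.98 ± 0.644 CPM with BMP4 against 0.162 ± 0.0490, 0.474 ± 0.274 and 0.408 ± 0.129 CPM. TLE2, a Groucho corepressor, had 0.986 ± 0.205 against 18.8 ± 3.83 CPM.

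Among related homeobox genes, 14 of 19 could be tested, and at 96 h 5 were higher with BMP4 (LHX5, ISL1, LHX8, LHX2 and PITX1) and 3 lower, LHX9 and LMX1B among them (median 0.271 against 0.00488 over all genes; 7.62% of all genes higher, 7.95% lower). LHX5, the nearest paralog of LHX1, went the opposite way to it: at 96 h it had 21.3, 24.3 and 29.8 CPM with BMP4 against 0.148, 0.167 and 0.452 CPM with Activin+BMP4, a log2 difference of 6.59 ± 0.62 (edgeR adjusted p = 2.65e-12). The 2 conditions did not overlap at this time. OTX1, the paralog of OTX2, was low and not called, at 6.27 ± 2.15 and 5.30 ± 0.859 CPM. ISL1, a LIM-homeodomain factor that is also on the amnion list, had 28.9 ± 3.15 against 0.880 ± 0.141 CPM.

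HESX1 is best known from the rostral neural plate, and the forebrain and neural list is therefore given beside it. Of 11 genes tested among 15, 3 were higher with BMP4 (SIX3, EN1 and EN2) and 0 lower at 24 h, and 8 were higher and 1 lower at 96 h (median 2.08 against 0.00488 over all genes). Of all genes 2.41% were higher and 1.6% lower at 24 h, and 7.62% and 7.95% at 96 h. LHX2 is counted both here and among the related homeobox genes. SIX3, a homeobox factor of the rostral forebrain, was at 22.2, 28.4 and 34.1 CPM with BMP4 at 96 h and 0.371, 0.469 and 0.557 CPM with Activin+BMP4. FEZF1, a zinc finger factor of the forebrain, was at 30.6, 33.3 and 41.1 against 2.78, 2.85 and 3.97 CPM. RAX, a homeobox factor of the eye field, was at 4.65, 5.44 and 8.55 against 0.667, 0.368 and 0.383 CPM. In each of these genes all 3 BMP4 libraries were above all 3 Activin+BMP4 libraries. How many of all genes separate this way was not counted. The log2 differences of SIX3, FEZF1 and RAX were 5.91 ± 0.33, 3.45 ± 0.22 and 3.71 ± 0.45, with edgeR adjusted p of 1.56e-19, 1.02e-17 and 2.53e-09. EN1 had the largest change of the list, 7.04 ± 0.71, at 2.17 ± 0.147 against 0.0116 ± 0.0201 CPM. The 1 gene called lower was PAX6, at -1.86 ± 0.17. FEZF1, like HESX1, was present in untreated cells, at 20.8 ± 1.16 CPM, whereas SIX3 was at 0.353 ± 0.227 CPM.

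**Figure D5:**
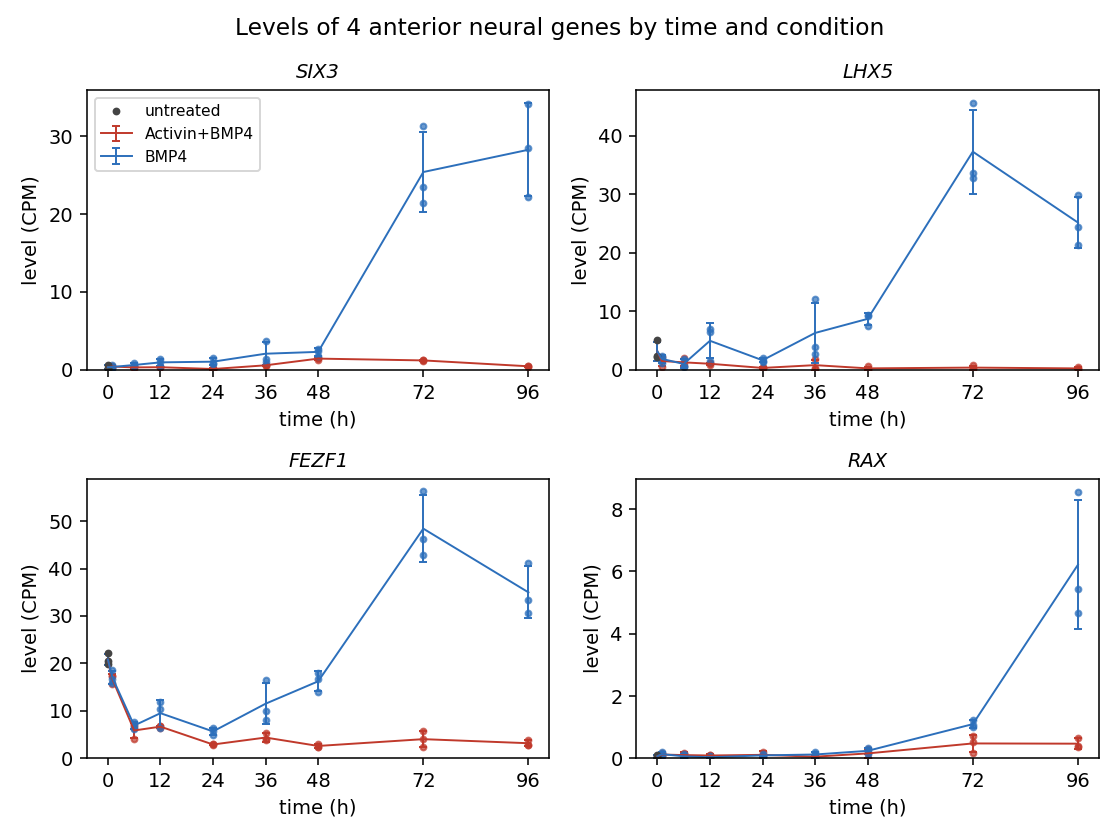
CPM against time in hours for SIX3, LHX5, FEZF1 and RAX, with each library as a point, lines through group means and bars of 1 SD over 3 libraries. At 96 h the BMP4 lines end at 28.2, 25.2, 35.0 and 6.21 CPM and the Activin+BMP4 lines at 0.465, 0.256, 3.20 and 0.473 CPM.

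Markers of other cell types moved with the conditions as well, and their counts at 96 h stand beside 7.62% of all genes higher with BMP4 and 7.95% lower. The 10 genes of the amnion list summed to 2256 to 2556 CPM at 96 h of BMP4 and 88.1 to 116 CPM in Activin+BMP4, and 8 of 10 were higher with BMP4. The 10 visceral and yolk sac endoderm genes summed to 21.7 to 24 CPM with BMP4 and 123 to 178 CPM with Activin+BMP4, with 6 of 9 tested genes lower and 1, AFP, higher, and TTR at or below 0.0265 CPM in the group means. Summed levels of the 15 forebrain and neural genes overlapped, at 178 to 193 CPM with BMP4 and 145 to 213 CPM with Activin+BMP4. PAX6, the 1 gene of this list called lower, had 10.9 ± 2.42 CPM with BMP4 against 39.7 ± 7.45 CPM, and TUBB3, a neuronal tubulin that was under 2-fold, had 83.1 ± 10.4 against 139.8 ± 32.4 CPM. SOX1, a defining neural marker, was at or below 0.243 CPM in the group means. The pluripotency genes summed to 3747 to 3987 and 4579 to 5014 CPM, with 3 of 10 lower with BMP4 (TDGF1, FOXD3 and NANOG) and 0 higher. TDGF1 made up much of that gap, at 175 ± 5.56 against 829 ± 35.0 CPM. ZFP42, DNMT3B, SOX2 and PRDM14 had higher means with BMP4, all under 2-fold. The part these shifts play in the levels of the 4 genes was not tested, and in bulk RNA fewer expressing cells and less RNA per cell cannot be told apart.

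Over the 17 group means of log2(CPM + 1), the Pearson correlation was 0.873 between GSC and LHX1, 0.799 between GSC and OTX2 and -0.651 between GSC and HESX1. Within Activin+BMP4 (n = 8 means) GSC and HESX1 gave -0.888, and OTX2 and HESX1 -0.628. Within BMP4 (n = 8 means) the same pairs gave 0.441 and 0.696, a positive sign in place of a negative one. These are descriptions over means that share a time course.

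The genes whose course was most like that of GSC over the 17 means were CD48, IFITM1, USP22, MFAP4 and PRKD3, with Pearson r of 0.9877, 0.9809, 0.9785, 0.9782 and 0.9772. For LHX1 they were GATA6, SERPINE2, CHL1, GMPR and ITGA5, with r from 0.9753 (ITGA5) to 0.9841 (GATA6). OTX2 was followed most closely by CYP26A1 (0.9604), an enzyme that degrades retinoic acid, then SLC36A1, KCNK12, B4GALT4 and KXD1. HESX1 was most like FEZF1-AS1 (0.9534), the antisense transcript of FEZF1, whose reads cannot be told apart from those of FEZF1 where strand is not used, then MAP2, a neuronal microtubule protein, KIF21B and PIP4K2A. With Spearman's correlation 1 of the 5 genes for GSC, 0 for LHX1, 2 for OTX2 and 3 for HESX1 were again among the 5 most alike.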

How the data were processed

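The authors deposited 1 table of whole-number counts per Ensembl gene for 51 libraries. GRCh38 and the tools STAR 2.5.2a, RSEM 1.3.0 and cutadapt 1.5 are named without roles, per the submitters' processing notes; whether the counts are read counts or rounded estimates, the annotation release and the strand setting are not given in the sources used here. Libraries were made from 400 ng of RNA with the KAPA RNA HyperPrep kit, per the labels. Symbols matched 56948 of 58051 rows. Genes were filtered with edgeR's filterByExpr (minimum count 10, minimum total 15), which kept 19603 genes and 99.95% of the counts. TMM factors ran from 0.966 to 1.03. One edgeR 4.0.16 quasi-likelihood model (R 4.3.3) with 1 mean per group over all 51 libraries gave 39 comparisons, each adjusted by Benjamini-Hochberg over all genes tested, with SE computed from the F statistic (common dispersion 0.00349). DESeq2 1.42.0, other scalings and filters, fits of the compared groups alone, a replicate block and leaving out each library were the alternatives.

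On simulated counts for 18545 genes of the 96 h comparison the model called 66 of 67 genes changed 3-fold, 66 of 66 changed 8-fold, 0 of 67 changed 1.5-fold and 0 of 18345 unchanged genes. As a call needs at least 2-fold, few calls could arise among genes changed 1.5-fold or unchanged. The changed genes had a mean of at least 10 counts and all genes shared 1 dispersion, so GSC at its lowest counts is not covered. The members and the 10 gene lists (133 genes, 132 found, 120 tested) were chosen with earlier results of these data known. Named from a list were up to 4 called genes with the largest absolute change at the time described and others with their level only; other list genes printed with values or to spell out small counts, such as NODAL, FGF8, TBXT, CHRD, NOG and PAX6, were added after their values were seen. Genes alike were the 5 with the highest Pearson correlation among those with a symbol and at least 10 CPM in some group. Some genes of the lists and of the genes most alike in course are not reported here by name.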

Additional observations from a re-analysis of the deposited data

Results flagged for a closer look

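In 3 of the 4 genes the difference between BMP4 and Activin+BMP4 was not the same at 96 h as at 24 h, by edgeR's test of that change. The log2 difference changed by -2.34 for OTX2 (adjusted p = 3.1e-16), by -1.13 for LHX1 (0.0065) and by 2.49 for HESX1 (4.31e-10). Of all genes tested, 13.6% were called for the same change. The LHX1 value fell just under 2-fold, to -0.987, without BMP4 96 h replicate 3. No explanation of these changes was tested.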

How the results depend on the processing

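No alternative reversed a called result of the 4 genes. Under other scalings, filters, DESeq2, fits of the compared groups alone and the replicate block, 450 called values kept their call and 4 fell under the threshold: LHX1 at 12 h of Activin+BMP4 against untreated (0.9945 with RLE factors, 0.996 with the stricter filter, 0.9989 with DESeq2) and the OTX2 step from 48 to 72 h of Activin+BMP4 (0.9962 with the stricter filter). With 1 library left out, 403 called values kept their call and 23 did not. Replicate numbers did not pair the libraries (2 of 24 same-numbered pairs correlated above 0.1, and 12 of 48 libraries were closest to their own number); with the replicate block GSC at 96 h differed by -5.89 and no call of a member changed. The OTX2 condition difference at 1 h, -0.00246, became 0.00326 with the stricter filter and 0.00392 in the fit of its groups alone.

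With 1 library left out, these log2 values crossed the call threshold. GSC against untreated ranged from 2.05 to 5.82 at 1 h of Activin+BMP4 and from 1.11 to 4.88 at 1 h of BMP4, its step from 1 to 6 h of Activin+BMP4 from -2.78 to -1.26, and its step from 24 to 36 h of BMP4 from 2.09 to 3.08. LHX1 against untreated ranged from 0.808 to 1.11 at 12 h of Activin+BMP4 and from 0.939 to 1.10 at 24 h of BMP4, and the change of its condition difference from -1.33 to -0.987. OTX2 against untreated at 6 h ranged from -1.08 to -0.84 with Activin+BMP4 and from -1.03 to -0.938 with BMP4, and its step from 48 to 72 h of Activin+BMP4 from 0.983 to 1.02. The HESX1 step from 1 to 6 h of Activin+BMP4 ranged from -1.07 to -0.836.

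Values that were not called and changed sign with 1 library left out were, for GSC against untreated, -0.188 to 3.97 and -0.0502 to 4.12 at 6 and 12 h of Activin+BMP4 and -0.0837 to 3.69, -3.23 to 2.57 and -0.00413 to 3.92 at 6, 12 and 24 h of BMP4. The high ends leave untreated cells with no GSC count and depend on the fit's prior count. The others were the GSC condition difference at 6 h (-0.871 to 0.649) and step from 6 to 12 h of Activin+BMP4 (-0.792 to 1.07), and LHX1 against untreated at 1 h (-0.354 to 0.0657) and 12 h (-0.083 to 0.152) of BMP4. For OTX2 they were the condition difference at 1 h (-0.0712 to 0.0457) and 6 h (-0.132 to 0.11) and the BMP4 step from 12 to 24 h (-0.0813 to 0.254). For HESX1 they were the condition difference at 1 h (-0.00016 to 0.0702), the Activin+BMP4 steps from 6 to 12 h (-0.0173 to 0.216), 24 to 36 h (-0.146 to 0.0408) and 48 to 72 h (-0.0639 to 0.348), and the BMP4 steps from 6 to 12 h (-0.0355 to 0.391) and 36 to 48 h (-0.0373 to 0.229).

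The number of all genes called between the conditions was 148 in place of 1 at 1 h and 243 in place of 99 at 6 h without a filter, 7 at 1 h with DESeq2, and 517, 720, 1116, 1094 and 1808 from 24 to 96 h with the stricter filter, in place of 787, 1094, 1814, 1888 and 3052. Fewer genes were tested under the stricter filter. Of the 5 genes most alike, a pseudocount of 0.1 shared 2 for GSC and 3 for LHX1, and Spearman's correlation shared 1 for GSC, 0 for LHX1, 2 for OTX2 and 3 for HESX1. The cause of these changes was not tested. GSC before 36 h of BMP4 rests on 2 to 10 counts per group, so small changes there were not detectable at this depth.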

Other observations

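At 12, 36, 72 and 96 h of BMP4, OTX2 and HESX1 deviated between libraries together with the forebrain genes LHX5, FEZF1 and SIX3, a pattern noticed after the values were seen and not tested. At 12 h replicate 3 was the lowest of the 3 libraries in each: OTX2 34.7 against 57.2 and 50.7 CPM, HESX1 3.01 against 4.78 and 5.71 CPM, LHX5 1.51 against 6.98 and 6.44 CPM, FEZF1 6.40 against 11.9 and 10.3 CPM, and SIX3 0.527 against 1.03 and 1.35 CPM. At 36 h replicate 1 was the highest in each, with OTX2 at 82.3, HESX1 at 5.10, LHX5 at 12.2, FEZF1 at 16.4 and SIX3 at 3.74 CPM. Replicate 1 was again the highest in each at 72 h, and replicate 3 at 96 h, where LHX1 was lowest in the same library at 29.9 CPM. The match at 12 h was in the lowest library only, as OTX2 was highest in replicate 1 and HESX1 in replicate 2. For OTX2 and HESX1 the other BMP4 times were mixed. At 1 h both were highest in replicate 3 (76.6 and 10.7 CPM). At 6 h OTX2 was highest in replicate 3 and HESX1 in replicate 1 (44.3 and 4.64 CPM). OTX2 was highest in replicate 1 at 24 h (53.2 CPM), where HESX1 was lowest (2.63 CPM). At 48 h OTX2 was highest in replicate 1 (94.6 CPM) and HESX1 in replicate 2 (4.40 CPM), while replicate 3 was the lowest for both (82.8 and 4.17 CPM). With Activin+BMP4, OTX2 and HESX1 were highest in the same library at 12, 36, 72 and 96 h and in different libraries at 1, 6, 24 and 48 h. At 48 h replicate 3 was the highest for OTX2, at 109.5 CPM, and the lowest for HESX1, at 1.54 CPM. At 72 h of Activin+BMP4 replicate 1 was the highest for HESX1, at 2.74 CPM, and the lowest for FEZF1, at 2.30 CPM. The labels give no culture or batch for these libraries.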
